A study of Rattus norvegicus with 24 samples.

Results

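The RNA of single sensory neurons was compared between 1 day and 7 days after a spared nerve crush (SNC) in male Sprague-Dawley rats. All neurons of a DRG sample that held at least 500 genes, at least 1000 UMIs (molecules counted by their unique molecular identifier) and a share of mitochondrially encoded UMIs under 5% were summed, so that each DRG sample gave 1 value per gene. The comparison held 238 neurons of 4 samples at 1 day (94 in sample 13, 96 in 16, 24 in 17-1 and 24 in 17-2). It held 240 neurons of 5 samples at 7 days (96 in S, 48 in 8, 48 in 9, 24 in 19-1 and 24 in 19-2). Together these were 478 of the 1433 cells of the series that passed these limits. Sample S joined 2 libraries, S-2 and S-3. In every rat the tibial and common peroneal branches of the left sciatic nerve were crushed and the sural branch was spared, and sham rats had the nerve exposed only. Dyes injected into the branches before the crush marked which L4 and L5 dorsal root ganglion (DRG) neurons sent an axon into a crushed or into the spared branch, and labelled neurons were picked by hand. The labels give 127 directly and 113 indirectly injured cells at 1 day and 120 of each at 7 days, but the names of the cells do not carry the dye, so every sample mixes crushed and uncrushed neurons. The mix was even in most samples and uneven in 19-1 (20 directly and 4 indirectly injured), 19-2 (4 and 20) and 17-2 (16 and 8). The age of the rats and the rat behind each sample are not given in the sources used here, so the p-values measure the spread between these samples, which may be technical in part. The study states that ganglia of at least 5 rats were harvested per time point, so samples and rats need not match 1 to 1. It also states that cells of both dyes were taken in about equal number from each animal, which neither 19-1 nor 19-2 alone shows. Sample pairs 17-1 and 17-2, and 19-1 and 19-2, may each come from 1 rat. The chi-square per degree of freedom between their counts was 10.7 for 17-1 and 17-2, against 25.6 to 35.8 for the other pairs at 1 day. It was 35.3 for 19-1 and 19-2, inside the range of the other pairs at 7 days (13.9 to 51.5). This measure rises with the depth of a pair, and 17-1 and 17-2 were shallow (8703690 and 9115871 UMIs, against 25456475 and 26681629 in 13 and 16). It therefore cannot show whether a pair comes from 1 rat. With each pair merged into 1 sample, edgeR likewise called 0 genes between the days.

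A crushed axon sends retrograde signals to its cell body in the DRG. Within hours immediate early genes such as Fos, Egr1 and Klf4 can be transcribed, and over days a set of injury genes (Atf3, Sox11, Sprr1a, Gap43) supports regrowth, while peptides, ion channels and receptors that set the excitability of the neuron are adjusted. The first day therefore samples the early response and the seventh day a state in which axons regrow. The ganglion holds neurons of many classes, from large touch neurons to small peptidergic nociceptors that signal pain and itch, and each sample is a sum over those picked.

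The 2 groups were not processed in the same year. All 4 samples at 1 day were reverse-transcribed in the later of the years used, S, 8 and 9 in the earlier, and 19-1 and 19-2 in the later, on the same date as 17-1 and 17-2. Sample S was also sequenced on an earlier date than the other samples compared, which share a sequencing date. Against S, 8 and 9 the day after injury and the year cannot be told apart, so each value was also set against 19-1 and 19-2 alone. A difference is said below to hold against 19-1 and 19-2 where it had the same sign, an unadjusted p under 0.05 and no overlap between the 4 samples at 1 day and these 2. Totals ran from 8703690 to 26681629 UMIs per sample at 1 day and from 9469873 to 28975829 at 7 days. The median UMIs per cell (255133 ± 42257 at 1 day and 296504 ± 101796 at 7 days, mean ± SD over 4 and 5 samples) differed by less than the spread between samples (p = 0.492 by an exact two-sided permutation test, which could reach 0.0159 at the least). So did the median genes per cell (9357 ± 290.5 and 9456 ± 723, exact permutation p = 0.778). Samples 19-1 and 19-2, however, were deeper than every sample at 1 day, with medians of 349797 and 437461 UMIs and 10381 and 10028 genes per cell, against at most 306473 UMIs and 9636 genes at 1 day. When cells were thinned to 20000 UMIs, 1 gene in place of 5 passed the test against these 2.

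Samples 19-1 and 19-2 stood apart from all others, and this bears on every comparison with them. Dstn, which severs actin filaments, was at 73.0 and 62.4 CPM (counts per 1000000 UMIs, with library sizes scaled by edgeR's TMM) in 19-1 and 19-2, against 301 to 431 CPM in the other 14 labelled samples, sham and 3 days included. Hid1, a Golgi protein needed for dense-core vesicles, was at 5.82 and 9.28 CPM against 27.0 to 53.7. Map4k4 and Slk, both protein kinases, and Zeb2, a zinc-finger repressor, were likewise lower in 19-1 and 19-2 than in any of the other 14. By level alone, without a test, 622 of the 14239 genes tested (4.37%) lay below all other samples in both 19-1 and 19-2 and 584 (4.1%) lay above them. No such count was made for another pair of samples, so these shares have no reference. Between 7-day samples alone, 420 genes (2.95%) differed between S, 8 and 9 and 19-1 and 19-2 at an adjusted p under 0.05 (edgeR quasi-likelihood test with Benjamini-Hochberg adjustment), 307 higher and 113 lower in S, 8 and 9.

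**Figure D1:**
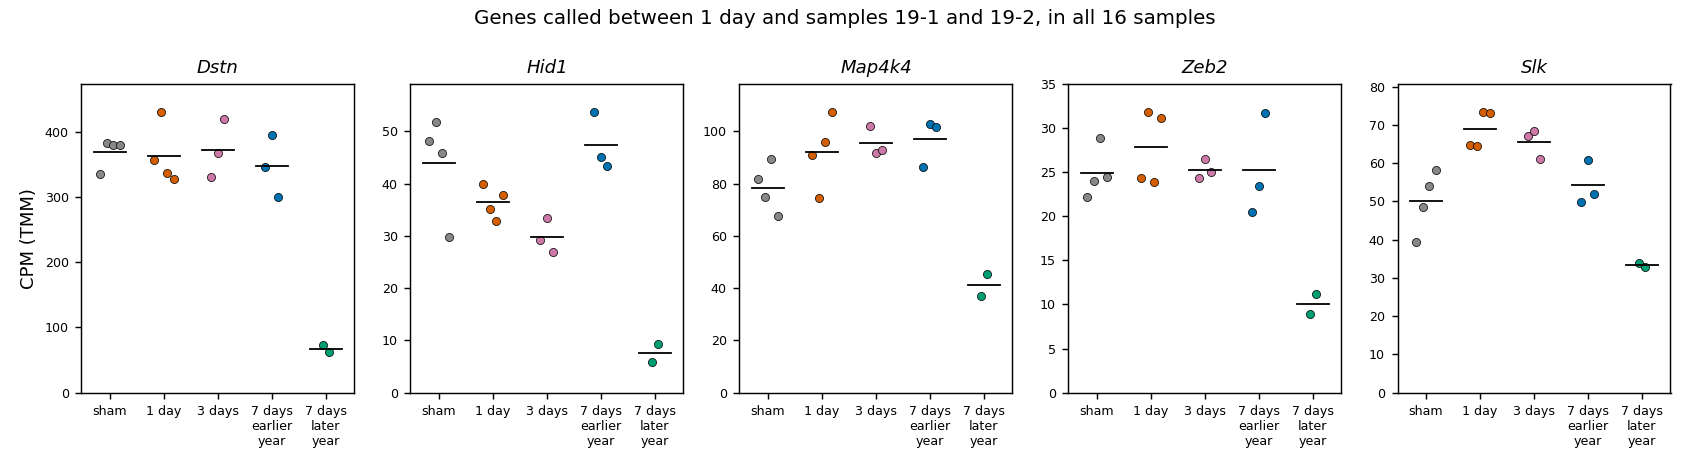
Level (CPM with TMM library sizes, y axis) of the 5 genes called between 1 day and samples 19-1 and 19-2, in each of the 16 labelled samples, by group on the x axis. Points are samples and bars are group means. Samples 19-1 and 19-2 (7 days, later year) are the lowest 2 for every gene, and the 7-day samples of the earlier year overlap the 1-day samples for Dstn, Map4k4 and Zeb2.

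Set against 19-1 and 19-2 alone, 5 genes passed the test (0.0351% of the genes tested), all higher at 1 day, namely Dstn (log2 difference 2.42 ± 0.16, SE), Hid1 (2.27 ± 0.25), Zeb2 (1.47 ± 0.22), Map4k4 (1.16 ± 0.17) and Slk (1.04 ± 0.16). Their level at 1 day was not particular to that day. Against S, 8 and 9 the differences were 0.06 for Dstn, -0.38 for Hid1, 0.15 for Zeb2 and -0.07 for Map4k4, and these groups overlapped or lay the other way. Only Slk had an unadjusted p under 0.05 without overlap against S, 8 and 9 as well (0.35 ± 0.14, unadjusted p = 0.022). Slk was at 64.7, 64.5, 73.5 and 73.2 CPM at 1 day and 49.8, 60.9, 52.0, 34.0 and 33.0 CPM at 7 days, in the order of samples given above, which is the order used throughout. What sets 19-1 and 19-2 apart was not tested.

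Between 1 day and all 5 samples at 7 days, no gene of 14239 passed the edgeR test at an adjusted p under 0.05 (0.0%), and the lowest adjusted p was 0.346. At an unadjusted p under 0.05 there were 944 genes (6.63%), of which 652 (4.58%) were higher and 292 (2.05%) lower at 1 day. DESeq2 on the same samples called 22, 19 higher and 3 lower. The groups did not overlap for 357 genes (2.51%), and 249 (1.75%) had both no overlap and an unadjusted p under 0.05. Of these 249, 142 also held against 19-1 and 19-2 (0.997% of all genes tested), 110 higher (0.773%) and 32 lower (0.225%) at 1 day, while 1528 of all genes tested (10.7%) held against 19-1 and 19-2 whatever they did against the others. The median log2 difference of all genes was -0.01 against all 7-day samples, 0.06 against 19-1 and 19-2 and 0.01 against S, 8 and 9. Below, the differences are therefore given as values, and none is called a change. Counts of list members at an unadjusted p under 0.05 against all 7-day samples are to be read beside the shares of all genes, 4.58% higher and 2.05% lower.

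Among genes of at least 10 CPM whose groups did not overlap, 133 were higher and 92 lower at 1 day (1.52% and 1.05% of the 8756 genes at that level), and the 10 with the lowest p at either end are described, apart from 1 of the higher genes. The adjusted p of these 20 ran from 0.346 to 0.701 (edgeR). The 10 that were higher at 1 day included a neuronal glutamate transporter and membrane and RNA-binding proteins. All 10 held against 19-1 and 19-2 (as did 6.05% of all genes tested, in this direction) and against S, 8 and 9 as well. Since they were chosen for a low p without overlap over these same samples, their direction, size and p in either subset depend on the choice, so these values are a description and cannot be read against the share of all genes.

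Tspan18, a tetraspanin of the plasma membrane, was at 38.3, 48.0, 52.2 and 63.1 CPM at 1 day and 17.9, 23.0, 27.4, 21.3 and 21.1 CPM at 7 days, a log2 difference of 1.19 ± 0.22 (SE) and the lowest p of the named genes. The lowest 1-day sample was above the highest 7-day sample, and the sham samples (16.3 to 31.5 CPM) and those at 3 days (10.4 to 21.8) lay with the 7-day samples. Its mean level per cell was highest in NF-like neurons, at 131 CPM, against 31.6 in cluster 3, 29.7 in PEP1-like neurons and 24.6 in cluster 8. It was under 5 in NP-like, PEP3-like and SST-like neurons and in clusters 1 and 9, where the classes are those described further below. In sums over cells, fewer cells of a class and less RNA per cell cannot be told apart. The mean share of NF-like neurons was higher at 1 day, within the spread between samples. When they were left out, the difference in Tspan18 was 0.69 ± 0.53 (unadjusted p = 0.21), and in PEP1-like neurons alone it was 1.05 ± 0.50.

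Serinc5, a multipass membrane protein, had the second largest difference of the 10 at 1.58 ± 0.32 (SE), with 20.2, 16.3, 24.8 and 28.7 CPM at 1 day and 6.88, 5.89, 6.64, 7.18 and 10.9 CPM at 7 days. At 7 days 19-2 lay above the other 4, which ran from 5.89 to 7.18 CPM. Slc1a1, the neuronal carrier of glutamate and cysteine, was at 44.6, 49.2, 55.5 and 52.4 CPM at 1 day and 30.1, 30.6, 34.8, 27.0 and 35.1 CPM at 7 days (0.68 ± 0.14), and the sham mean of 31.8 ± 3.40 CPM lay with the 7-day samples. S100a1, a calcium-binding protein, was at 49.3, 43.8, 47.4 and 46.1 CPM at 1 day and 23.0, 21.1, 37.1, 27.5 and 27.9 CPM at 7 days (0.77 ± 0.16). For S100a1 sample 9 came nearest to the 1-day samples, and sham (31.6 to 41.4 CPM) lay below the 1-day samples and overlapped the 7-day samples. Pitpnm2, a phosphatidylinositol transfer protein, and Strn3, a scaffold of protein phosphatase PP2A, had differences of 0.85 ± 0.18 and 0.66 ± 0.14, and both were higher in 17-1 and 17-2 than in 13 and 16. Arid5b, a DNA-binding cofactor of a histone demethylase, was at 94.9 ± 8.40 CPM at 1 day (SD, n = 4) and 64.7 ± 4.37 CPM at 7 days (SD, n = 5). Samd4b, an RNA-binding repressor of translation, was at 39.5 ± 4.23 CPM and 27.1 ± 3.00 CPM, and at 39.6 ± 1.15 CPM at 3 days (SD, n = 3).

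Fbln2, which codes for the extracellular matrix protein fibulin 2, had the largest log2 difference (3.12 ± 0.75, SE) and the most uneven one. It was at 4.46, 4.27, 31.7 and 33.1 CPM at 1 day and 4.19, 2.87, 1.21, 1.04 and 0.730 CPM at 7 days, so 17-1 and 17-2 were far above the rest while 13 and 16 stood only just above sample S. Fbln2 was highest in cluster 8, the cells in which glial genes were high (83.1 CPM), and the difference without that cluster was 3.77 (unadjusted p = 0.0015). Glial genes were also high in 17-1 and 17-2, with Apoe at 558 and 246 CPM there and 113 and 105 in 13 and 16, and their part in the Fbln2 level was not tested.

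The 10 genes lower at 1 day included the neuropeptide neurotensin, a p53 target, a small proteolipid and metabolic enzymes. Of the 10, 6 held against 19-1 and 19-2 (Glrx5, Phlda3, Nnat, Snx20, Nts and Adprhl2). Of all genes tested 4.68% held in this direction, and nothing can be read from the comparison, as the 10 were chosen on these samples. RGD1359290, Rps9, Ggct and Lmo1 had the same sign against 19-1 and 19-2 at unadjusted p from 0.064 to 0.11. Nts was at 6.97, 6.05, 3.62 and 3.43 CPM at 1 day and 8.07, 18.4, 8.66, 30.9 and 23.5 CPM at 7 days. Samples 19-1 and 19-2 were the highest of all 9, and the log2 difference was -1.80 ± 0.52 (SE) against all 7-day samples and -2.41 against these 2, while the sham samples ran from 3.32 to 18.9 CPM and the 3-day mean was 31.8 ± 22.0 CPM. Nts was found in cluster 9 (57.7 CPM), cluster 1 (22.4), cluster 3 (15.4) and NP-like neurons (15.3) and hardly in PEP1-like, PEP3-like or NF-like neurons.

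Nnat, neuronatin, a small membrane protein of the endoplasmic reticulum, was at 54.1, 60.5, 48.2 and 62.8 CPM at 1 day and 131, 135, 107, 88.0 and 181 CPM at 7 days (-1.19 ± 0.31, SE). Its lowest 7-day value, in 19-1, still lay above every 1-day value, and the difference within PEP1-like neurons alone was -1.39 ± 0.45 (unadjusted p = 0.0056), so the lower level at 1 day was also seen within that class. Phlda3, a p53 target that restrains Akt, was at 54.6, 46.1, 45.0 and 54.9 CPM at 1 day and 82.9, 94.2, 95.2, 57.1 and 97.2 CPM at 7 days (-0.77 ± 0.20), with 19-1 near the 1-day samples and 19-2 the highest of all. Both genes were highest in SST-like neurons (Nnat 187 and Phlda3 133 CPM), and without these neurons the differences were -1.15 and -0.75. Glrx5, a mitochondrial glutaredoxin of iron-sulfur cluster assembly, differed little in size but with narrow spread, at 210.1 ± 9.51 CPM (SD, n = 4) against 265 ± 15.6 CPM (SD, n = 5). Adprhl2, which removes ADP-ribose from proteins, showed the same pattern at 46.8 ± 3.72 CPM against 62.6 ± 2.16 CPM. Snx20, a sorting nexin, was at 5.49 to 7.17 CPM at 1 day and 8.25 to 15.9 at 7 days.

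The 4 that did not hold were Ggct, of glutathione breakdown (46.5 ± 5.25 CPM against 61.6 ± 7.52 CPM), Lmo1, a LIM-only transcription cofactor (76.2 ± 8.35 CPM against 106 ± 7.59 CPM), RGD1359290 (26.8 ± 8.11 CPM against 55.1 ± 16.8 CPM) and Rps9. This ribosomal protein gene was at 6.48, 7.24, 3.95 and 5.72 CPM at 1 day and 30.0, 9.95, 15.5, 12.5 and 10.5 CPM at 7 days. For Rps9 the sham samples reached 45.9 CPM, and as ribosomal protein genes have many near-identical processed copies, how its reads were assigned is uncertain. Between the libraries that share a date, 7 of all genes passed the adjusted test (0.0492%). DESeq2 called all 10 of the higher genes and Glrx5.

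**Figure D2:**
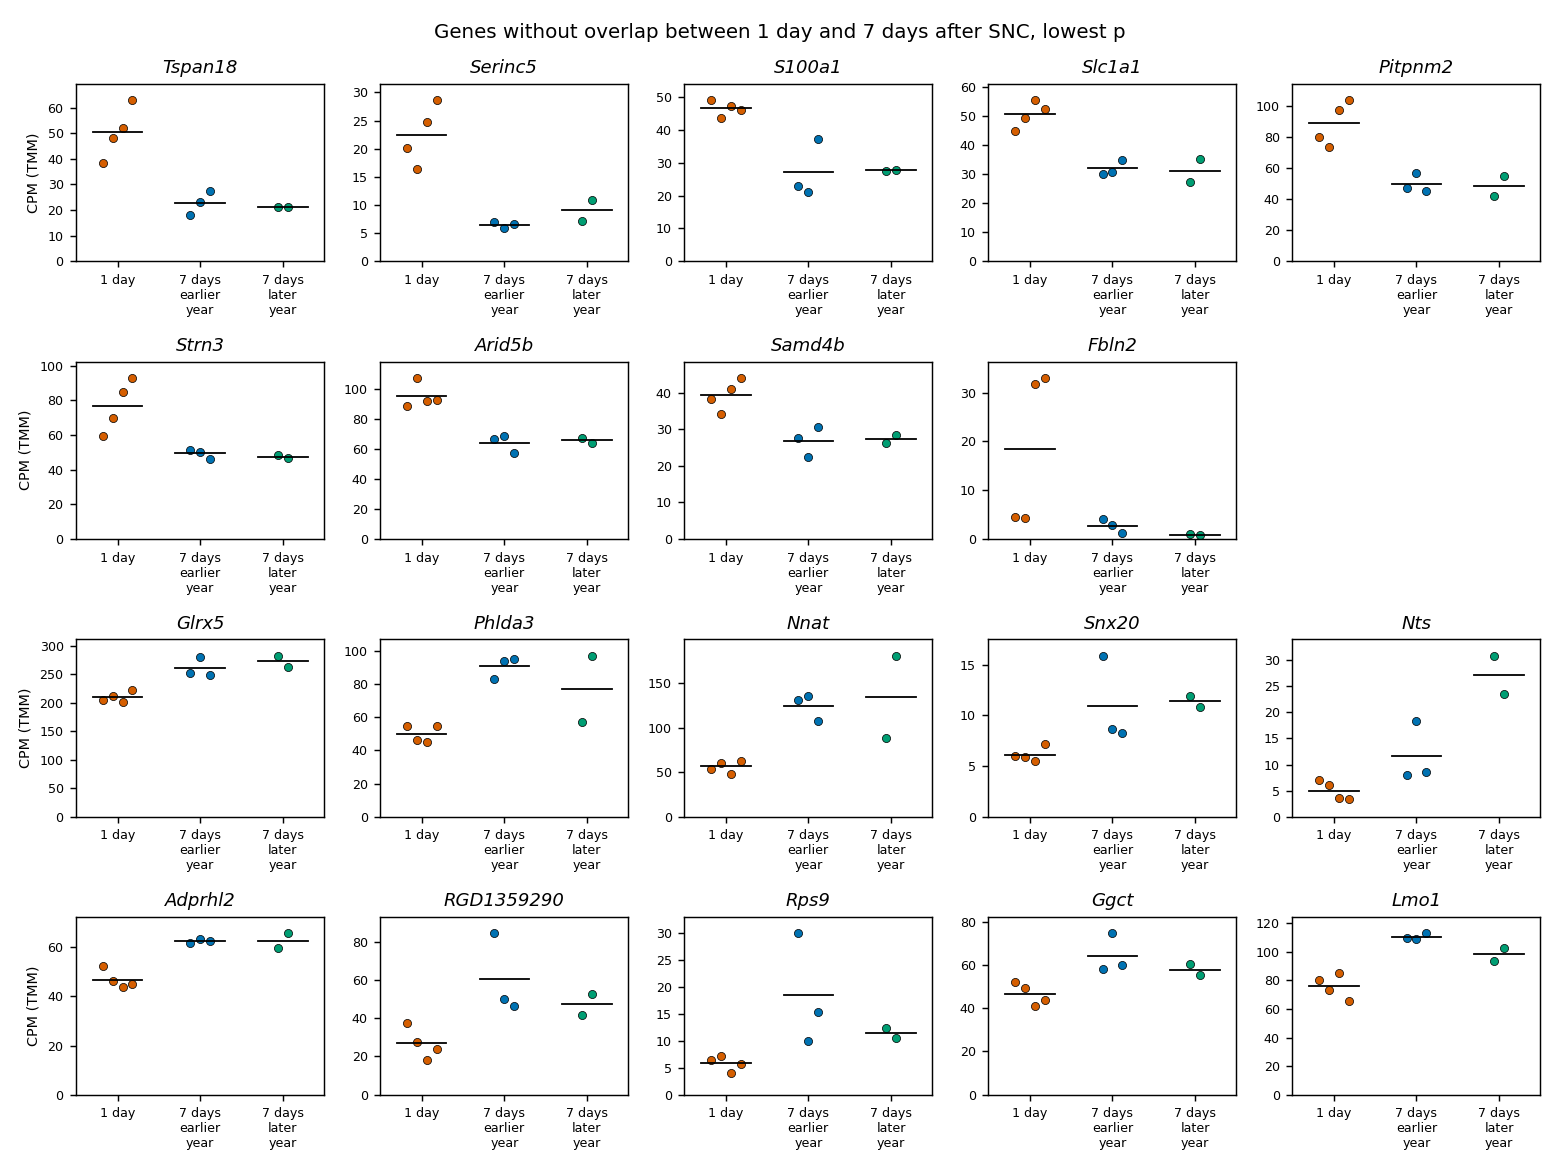
Level (CPM with TMM library sizes, y axes starting at 0) of the 19 genes described, with the 9 higher at 1 day in the upper rows and the 10 lower in the lower rows, by sample at 1 day, at 7 days in the earlier year (S, 8, 9) and at 7 days in the later year (19-1, 19-2). Points are samples and bars are means, and for every gene the 4 samples at 1 day lie on 1 side of all 5 samples at 7 days, by the choice of genes.

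Immediate early genes, transcription factors and phosphatases that respond to stimulation within minutes to hours, lay on the side of 1 day almost throughout. Of 24 tested, 23 had a log2 difference above 0 and 9 an unadjusted p under 0.05, all higher at 1 day (against 4.58% of all genes), with a median of 0.55 beside -0.01 for all genes. None passed the adjusted test. Against 19-1 and 19-2 the median was 0.39, beside 0.06 for all genes, with 20 above 0 and 3 higher at an unadjusted p under 0.05 (against 8.81% of all genes), and against S, 8 and 9 it was 0.78. The summed level of the list was 989 to 1506 CPM at 1 day, 709 to 1212 at 7 days and 669.5 to 1475 in sham, so the groups overlapped through sample 19-2, and sham spanned most of both ranges.

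Klf4, a zinc-finger factor, had the largest difference (1.98 ± 0.54, SE) and was at 12.7, 10.8, 74.2 and 41.5 CPM at 1 day and 4.69, 5.57, 7.28, 8.42 and 18.1 CPM at 7 days. As with Fbln2, 17-1 and 17-2 were the highest, 13 and 16 lay below 19-2, and the difference did not hold against 19-1 and 19-2 (1.38 ± 0.69, unadjusted p = 0.063). Ier3, a short-lived regulator of apoptosis and kinase signalling, was at 69.8, 44.1, 67.4 and 60.0 CPM at 1 day and 42.2, 36.1, 37.5, 43.0 and 34.9 CPM at 7 days, and all 4 samples at 1 day lay above all 5 at 7 days. It held against 19-1 and 19-2 (0.63 ± 0.23) and, between libraries of the same date, stood at 0.71. Fosl1 (0.78) held as well by the same measure. Dusp1, a phosphatase of MAP kinases, was at 229, 244, 260.3 and 199 CPM at 1 day and 176, 141, 152, 176 and 223 CPM at 7 days, where 19-2 was within the range of the 1-day samples. Egr1 (1.05), Egr2 (1.37), Nr4a1 (1.43), Maff (1.01) and Ier2 (0.94) had unadjusted p under 0.05 and did not hold against 19-1 and 19-2, with log2 values from 0.62 to 1.70 there. Fos (0.45), Junb (0.35) and Jund (0.14) did not reach an unadjusted p under 0.05. The median of the list was 0.53 without cluster 8, 0.36 when each cell weighed the same and 0.29 within PEP1-like neurons.

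**Figure D3:**
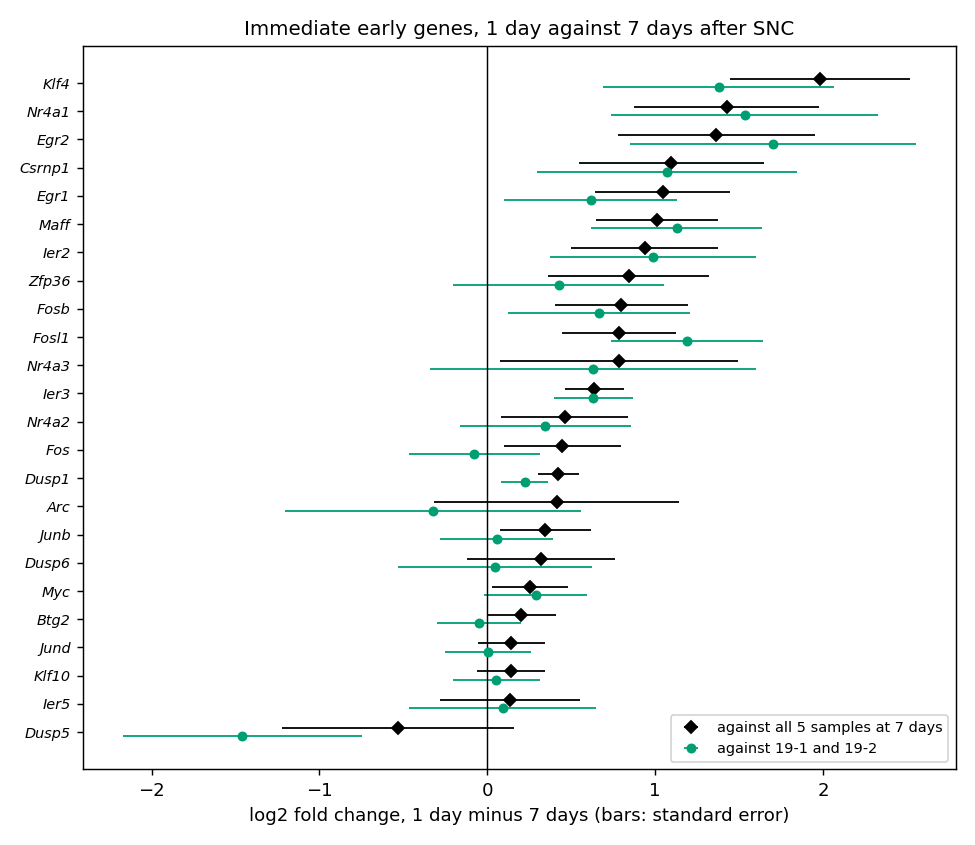
Log2 difference (1 day minus 7 days, x axis) of the 24 immediate early genes tested, against all 5 samples at 7 days (black) and against 19-1 and 19-2 alone (green). Bars are standard errors. All but Dusp5 lie above 0 against the 5 samples, and Fos, Arc, Btg2 and Dusp5 lie below 0 against 19-1 and 19-2.

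The injury and regeneration genes were as often above as below 0. Of 29 tested, 15 were above 0 and 14 below, with a median of 0.03 against all 7-day samples, 0.28 against 19-1 and 19-2 and -0.17 against S, 8 and 9. Gap43, the growth cone protein, averaged 1417 and 1451 CPM (-0.03 ± 0.16, SE), Jun 342 and 388 CPM (-0.18 ± 0.26) and Sprr1a 164 and 147 CPM (0.15 ± 0.39). At an unadjusted p under 0.05 there were Nts and Reg3b, lower at 1 day (against 2.05% of all genes), and Bdnf, higher (against 4.58%). Reg3b, a secreted lectin made by injured neurons, was at 134, 124, 42.7 and 237 CPM at 1 day and 146, 328, 164, 254 and 369 CPM at 7 days (-0.91 ± 0.41). It held against 19-1 and 19-2 though not against S, 8 and 9. Reg3b was highest in NP-like and SST-like neurons (626 and 331 CPM). Bdnf, the neurotrophin released by nociceptors, was at 299.5, 299, 249 and 333 CPM at 1 day and 199, 259.6, 201, 210.0 and 229 CPM at 7 days (0.43 ± 0.20, unadjusted p = 0.0497), which did not hold against 19-1 and 19-2.

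For several injury genes the values against 19-1 and 19-2 and against S, 8 and 9 were unlike in size or sign. Csf1, the signal from injured neurons to microglia, had a log2 difference of 1.79 against 19-1 and 19-2 and 0.16 against S, 8 and 9. For Ankrd1 the pair of values was 1.49 and 0.34, for Sox11, a transcription factor of regrowth, 0.96 and -0.17, and for Fgf2 1.07 and -0.65. The 2 comparisons share the 1-day samples, so the contrast between the values is one between the 7-day samples of the earlier and the later year.

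Neuropeptides differed in both directions. Of 17 tested, 4 were higher (Nmb, Tac1, Calca, Cartpt) and 3 lower (Nppb, Nts, Cck) at an unadjusted p under 0.05 (4.58% and 2.05% of all genes were), and the median was -0.06. Calca, which codes for calcitonin gene-related peptide, was at 2156, 1878, 1171 and 1419 CPM at 1 day and 728, 694, 1129, 701 and 989 CPM at 7 days, without overlap (0.97 ± 0.35, SE). Tac1, the precursor of substance P, was at 1048, 1203, 645 and 806 CPM at 1 day and 487, 525, 643, 423 and 645 CPM at 7 days (0.76 ± 0.27), where 19-2 and 9 were level with sample 17-1. Against 19-1 and 19-2 Calca stood at 0.97 ± 0.49 (unadjusted p = 0.066) and Tac1 at 0.79 ± 0.38 (unadjusted p = 0.053), so neither held. Both were highest in PEP3-like neurons (Calca 4933 and Tac1 2957 CPM), whose mean share was higher at 1 day within the spread between samples, and without those neurons the differences were 0.98 and 0.66.

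Nmb, neuromedin B, was at 118, 139, 55.6 and 119 CPM at 1 day and 25.7, 16.0, 20.1, 60.7 and 59.0 CPM at 7 days, and 19-1 and 19-2 lay within the 1-day range, unlike S, 8 and 9. It was highest in NF-like neurons (330.1 CPM), and without them the difference was 1.51, as against 1.58 ± 0.54 (SE) with all neurons. Nppb, natriuretic polypeptide B of itch neurons, was at 62.5, 24.5, 12.4 and 18.1 CPM at 1 day and 58.5, 114, 80.9, 59.4 and 209.7 CPM at 7 days (-1.81 ± 0.52), with 13 above S and 19-1 and the highest value in 19-2. Nppb marks SST-like neurons (478 CPM), of which 19-2 held the largest share, and without them the difference was -1.29 ± 0.65 (unadjusted p = 0.065). Cck, cholecystokinin, was at 4.65, 5.86, 6.59 and 0.104 CPM at 1 day and 41.6, 32.2, 78.6, 28.0 and 4.90 CPM at 7 days. It is a marker of PEP1-like neurons (73.2 CPM), whose mean share differed by 0.851 percentage points between the days, and within these neurons alone the difference was -3.67 ± 0.79 (unadjusted p = 0.00014), as against -3.09 ± 1.03 over all neurons. Sample 19-2 was the exception among the 7-day samples, at a level found at 1 day, and the difference did not hold against 19-1 and 19-2 (-1.91). Gal, galanin, a peptide induced by axotomy, ran from 525 to 1058 CPM at 1 day and from 738 to 1319 at 7 days (-0.39 ± 0.34), and Adcyap1, the PACAP precursor, from 423 to 572 and 224 to 478 CPM (0.41 ± 0.25). Adcyap1 held against 19-1 and 19-2 (0.93) and not against S, 8 and 9 (0.14).

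Of the ion channels, potassium channels gave the most genes at an unadjusted p under 0.05, with 5 higher (Kcnq5, Kcnd3, Kcnt1, Kcnt2, Kcnip1) and none lower at 1 day among 33 tested (against 4.58% and 2.05% of all genes), and a median of 0.08. Kcnd3, which carries the A-type current Kv4.3, was at 16.7, 23.7, 50.2 and 21.6 CPM at 1 day and 12.5, 12.1, 8.09, 9.78 and 14.5 CPM at 7 days (1.29 ± 0.40, SE), without overlap, and held against 19-1 and 19-2 and against S, 8 and 9. It was highest in NP-like neurons (95.1 CPM), whose share of a sample averaged 8.38% at 1 day and 3.54% at 7 days, and without them the difference was 1.16 ± 0.40 (unadjusted p = 0.0095). Kcnq5, an M-current subunit, was at 33.3, 61.2, 64.8 and 73.3 CPM at 1 day and 15.5, 21.9, 27.6, 44.3 and 20.6 CPM at 7 days (1.16 ± 0.30), where 19-1 overlapped sample 13. The difference was 0.80 without NF-like neurons and 0.99 ± 0.30 in PEP1-like neurons. Kcnt1 and Kcnt2, sodium-activated potassium channels, had 0.54 ± 0.21 and 1.03 ± 0.44, neither held against 19-1 and 19-2, and for Kcnt2 the value within PEP1-like neurons was -0.97 ± 0.74. Of the 5, Kcnd3 alone held against 19-1 and 19-2.

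Sodium channels were spread around 0, with a median of 0.03 over 11 genes. Scn3b, a beta subunit, was lower at 1 day (-0.45 ± 0.20, SE, unadjusted p = 0.035), did not hold against 19-1 and 19-2, and stood at 0.06 ± 0.22 within PEP1-like neurons. Scn10a, the nociceptor channel Nav1.8, was at 151, 143, 131 and 165 CPM at 1 day and 72.2, 64.4, 99.2, 100.2 and 201 CPM at 7 days (0.46 ± 0.29). Its sign turned against 19-1 and 19-2 (-0.03), with 19-2 the highest of all 9 samples. Of 12 calcium channel genes Cacna1b, the N-type channel of transmitter release, was at 90.4 and 65.0 CPM (0.47 ± 0.21). Among 22 channels of sensory transduction only P2rx2, an ATP-gated channel, had an unadjusted p under 0.05, lower at 1 day. It was at 55.1, 69.7, 50.8 and 45.4 CPM at 1 day and 82.8, 75.3, 74.5, 63.5 and 129.6 CPM at 7 days (-0.62 ± 0.23). The value against 19-1 and 19-2 was -0.80 ± 0.28 (unadjusted p = 0.011), but it did not hold, as 19-1 lay within the 1-day range. P2rx2 was highest in SST-like neurons (175 CPM), and without these it stood at -0.43 ± 0.21. Trpv1, Trpa1 and Trpm8, the channels for heat, irritants and cold, had 0.30 ± 0.41, 0.01 ± 0.42 and -0.20 ± 0.49.

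Of 23 receptors for trophic factors and cytokines, 2 were higher, Il6r among them, and 1, Il31ra, lower at an unadjusted p under 0.05. Of all genes 4.58% were higher and 2.05% lower at that level, and the median of the receptors was -0.05. Il6r, the interleukin 6 receptor, was at 5.72, 3.32, 5.49 and 9.15 CPM at 1 day and 4.49, 2.07, 2.27, 1.98 and 4.38 CPM at 7 days (0.95 ± 0.37, SE), with 16 inside the 7-day range. Il31ra, the itch receptor of SST-like neurons, was at 17.8, 4.87, 1.65 and 5.20 CPM at 1 day and 18.0, 14.3, 21.6, 6.34 and 35.7 CPM at 7 days (-1.35 ± 0.56). Its values ran with the share of SST-like neurons, lowest in 17-1 and highest in 19-2 for both. With each cell thinned to 20000 UMIs the sign of Il31ra turned (0.26), and neither Il6r nor Il31ra held against 19-1 and 19-2.

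Lists of cell stress and metabolism had few members at an unadjusted p under 0.05 (4.58% of all genes were higher and 2.05% lower at that level). Neither the integrated stress response (19 genes, median -0.06) nor the polyamine genes (10, 0.05) had any. Of 25 sterol genes, Srebf2, the factor that drives cholesterol synthesis, was at 115 and 85.5 CPM (0.43 ± 0.13, SE) and Hsd17b7, an enzyme of that pathway, at 25.7 and 17.6 (0.55 ± 0.21), while the median was 0.01. Neither held against 19-1 and 19-2. Of 19 chaperones of the endoplasmic reticulum, Dnajb9 was higher (0.23 ± 0.11) and Dnajb11 lower (-0.25 ± 0.10), and only Dnajb11 held against 19-1 and 19-2. Cytosolic chaperones lay below 0 in 15 of 19 (median -0.08), with Hsp90aa1 (7.89, 10.1, 4.06 and 6.65 CPM at 1 day and 20.7, 14.0, 16.3, 12.6 and 8.66 CPM at 7 days) and Hspe1 (-0.42 ± 0.15) at an unadjusted p under 0.05, of which Hspe1 held against 19-1 and 19-2. In the p53 list of 15 only Phlda3 passed that level, and Cdkn1a, the p21 inhibitor of the cell cycle, was at 134 and 86.8 CPM (0.62 ± 0.33), in the other direction.

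Of 24 antioxidant and glutathione genes, Mt1, Gpx3 and Gstm1 were higher and Gss lower at an unadjusted p under 0.05 (against 4.58% and 2.05% of all genes). Mt1, a metallothionein that binds zinc and copper, was at 15.3, 9.81, 23.6 and 11.7 CPM at 1 day and 3.62, 3.10, 2.99, 8.42 and 8.55 CPM at 7 days (1.51 ± 0.42, SE), without overlap. Samples 19-1 and 19-2 were nearest to the 1-day samples, and the difference did not hold against them. Gpx3, a secreted glutathione peroxidase, was at 52.5, 44.8, 88.0 and 81.6 CPM at 1 day and 28.7, 12.7, 38.5, 11.3 and 18.9 CPM at 7 days (1.59 ± 0.50), without overlap, and it held against both subsets. Although Gpx3 marks PEP3-like neurons (134 CPM), the difference was 1.5 ± 0.44 without those neurons and 1.77 ± 0.44 within PEP1-like neurons (unadjusted p = 0.00056). Gss, glutathione synthetase, stood at -0.27 ± 0.11 and held against 19-1 and 19-2, and Gstm1 did not (0.11).

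Ribosomal protein genes lay slightly lower at 1 day. Of 71 tested, 67 were below 0 and 6 had an unadjusted p under 0.05, all lower (against 2.05% of all genes). The median was -0.12 against all 7-day samples, -0.16 against S, 8 and 9 and -0.03 against 19-1 and 19-2. Rpl26 (131 and 202 CPM, -0.62 ± 0.22, SE) and Rpl31 (95.8 and 142 CPM, -0.57 ± 0.22) did not overlap between the days and did not hold against 19-1 and 19-2. Their sham means were higher still, at 240.5 ± 114 CPM and 176 ± 77.4 CPM. The summed level of the list, 23678 to 30663 CPM at 1 day and 25778 to 31444 at 7 days, overlapped. The 13 mitochondrially encoded genes went the other way, with 12 above 0 and 5 of them higher at an unadjusted p under 0.05 (against 4.58% of all genes). Their median was 0.16, close in both subsets (0.21 and 0.21). Mt-nd6 (0.36 ± 0.14) and Mt-atp6 (0.32 ± 0.13) had the lowest p among them, none held against 19-1 and 19-2, and cells over a mitochondrial share of 5% had been left out. Of 92 nuclear genes of the respiratory chain 65 were below 0, with a median of -0.04, and 2 were lower at an unadjusted p under 0.05 (against 2.05% of all genes).

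Genes of the growth cone and cytoskeleton were below 0 in 25 of 33 (median -0.08), and only Actg1, a cytoplasmic actin with many processed copies, had an unadjusted p under 0.05 (-0.66 ± 0.27, SE), with -0.20 against 19-1 and 19-2. Against 19-1 and 19-2 their median was 0.04 with 18 above 0. Among 27 genes of synaptic release Syn1, which tethers synaptic vesicles, was at 108, 111, 131 and 132 CPM at 1 day and 90.6, 101, 90.6, 96.2 and 85.6 CPM at 7 days (0.37 ± 0.10), without overlap, and held against both subsets. The interferon response list had 17 of 20 above 0 (median 0.19), beside 6879 of 14239 for all genes, and no member at an unadjusted p under 0.05. For this list 11 of 20 were above 0 against 19-1 and 19-2 (median 0.17), and the median within PEP1-like neurons was 0.003. Of 14 neuron identity genes Etv5, a target of trophic signalling, was higher (0.65 ± 0.22) and Tlx3, a homeobox factor at low level (1.65 and 3.40 CPM), lower (-1.07 ± 0.47). Neither held against 19-1 and 19-2, where they stood at 0.37 and -0.39.

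Markers of other cells differed in value between the days, although none passed the adjusted test. Glial markers had the highest median of all lists, 1.57 over the 13 of 16 genes that passed the filter. At an unadjusted p under 0.05 there were 6, all higher at 1 day (against 4.58% of all genes). Against 19-1 and 19-2 the median was 0.95, and none of the 16 was at 0 in all 9 samples. Their summed level was 1417 to 2295 CPM at 1 day, 1217 to 1782 at 7 days and 1495 to 2886 in sham. Apoe, the lipid carrier made by satellite glia, was at 113, 105, 558 and 246 CPM at 1 day and 118, 87.9, 88.5, 51.8 and 68.7 CPM at 7 days. Fabp7, a fatty-acid binding protein of these cells, was at 2.67, 4.63, 25.1 and 10.7 CPM at 1 day and 4.12, 1.91, 1.86, 1.35 and 3.23 CPM at 7 days. In both, 17-1 and then 17-2 were the highest, while 13 and 16 lay within or near the 7-day range. The glial median was 1.56 without cluster 8, 0.83 when each cell weighed the same and 0.14 within PEP1-like neurons. Immune markers lay the other way, at a median of -0.57 over the 7 of 14 genes that passed the filter and a summed level of 21.6 to 33.4 CPM at 1 day and 28.6 to 74.1 at 7 days. Lyz2, the lysozyme of macrophages, was at 1.45, 1.54, 0.659 and 0.312 CPM at 1 day and 13.7, 17.1, 1.21, 7.70 and 0.521 CPM at 7 days and Cd74, the invariant chain of MHC class II, was high in S and 8 (17.6 and 19.6 CPM against 1.04 to 3.51 at 1 day). Vascular and connective tissue markers were above 0 in 9 of the 9 that passed the filter, of 14 (median 0.66) at summed levels of 12.4 to 21.1 and 5.65 to 14.9 CPM. Since the glial median was hardly lower without cluster 8, the values without that cluster do not bear on glial RNA in other cells, and the part of such cells or their RNA in the differences given above was not tested.

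Neuronal genes were found in every sample, and the listed neuron identity genes, tested or not, summed to 3249 to 3694 CPM at 1 day and 3464 to 3697 at 7 days. Among the markers of neuron classes, those of PEP3 had 8 of 8 above 0, 4 at an unadjusted p under 0.05 (4.58% of all genes were higher at that level) and a median of 0.97 (1.15 against 19-1 and 19-2). Cd9, a tetraspanin, was at 314, 345, 295 and 219 CPM at 1 day and 119, 79.0, 206, 112 and 123 CPM at 7 days (1.20 ± 0.33, SE), without overlap, and held against both subsets. It was at 824 CPM in PEP3-like neurons, and leaving them out gave 1.19 ± 0.24, while PEP1-like neurons alone gave 0.18 ± 0.24. PEP1 markers had a median of 0.74, with 5 of 7 above 0. Thbd, thrombomodulin, was at 119, 105, 192 and 153 CPM at 1 day and 81.5, 91.1, 97.0, 31.9 and 53.7 CPM at 7 days (1.00 ± 0.36), without overlap. It held against 19-1 and 19-2 but not against S, 8 and 9, where its unadjusted p was not under 0.05. Cck and Gal, both PEP1 markers, lay in the opposite direction (Gal -0.39 ± 0.34). SST markers had a median of -0.70, with Nppb, Il31ra and Jak1 lower at an unadjusted p under 0.05 (against 2.05% of all genes). The medians of NF and NP markers were -0.12 and -0.10.

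The study grouped genes into modules on crushed PEP1 neurons of these samples, so their direction is not independent evidence. The lists used here hold only the module genes that the study also found among its PEP marker genes, not whole modules. The values below are sums over all classes and over crushed and uncrushed neurons, so they are not those of the study's modules. The Cyan genes had a median of 0.22 (18 of 22 above 0), but 0.63 against 19-1 and 19-2 and 0.01 against S, 8 and 9. Only Thbd and Pdcd6ip reached an unadjusted p under 0.05 against all, both higher (4.58% of all genes were). The Salmon genes had 0.16 (25 of 37 above 0), but -0.01 against 19-1 and 19-2 (18 of 37 above 0) and 0.25 against S, 8 and 9. Cd9, Gpx3, Calca, Tac1 and Atp1b3 of this list had an unadjusted p under 0.05 against all. For the Tan genes the sign turned, from -0.31 against S, 8 and 9 to 0.39 against 19-1 and 19-2 (10 genes). Of 13 genes named in the study, Cd9, Gpx3, Tac1 and Zfp521 had an unadjusted p under 0.05, Zfp521 lower at 1 day (7.24, 6.96, 8.46 and 7.59 CPM at 1 day and 18.0, 14.7, 5.99, 26.1 and 9.91 CPM at 7 days, -0.98 ± 0.45, SE). Zfp521 held against 19-1 and 19-2, while sample 9 lay below every 1-day sample, and within PEP1-like neurons it stood at 0.11 ± 0.78.

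**Figure D4:**
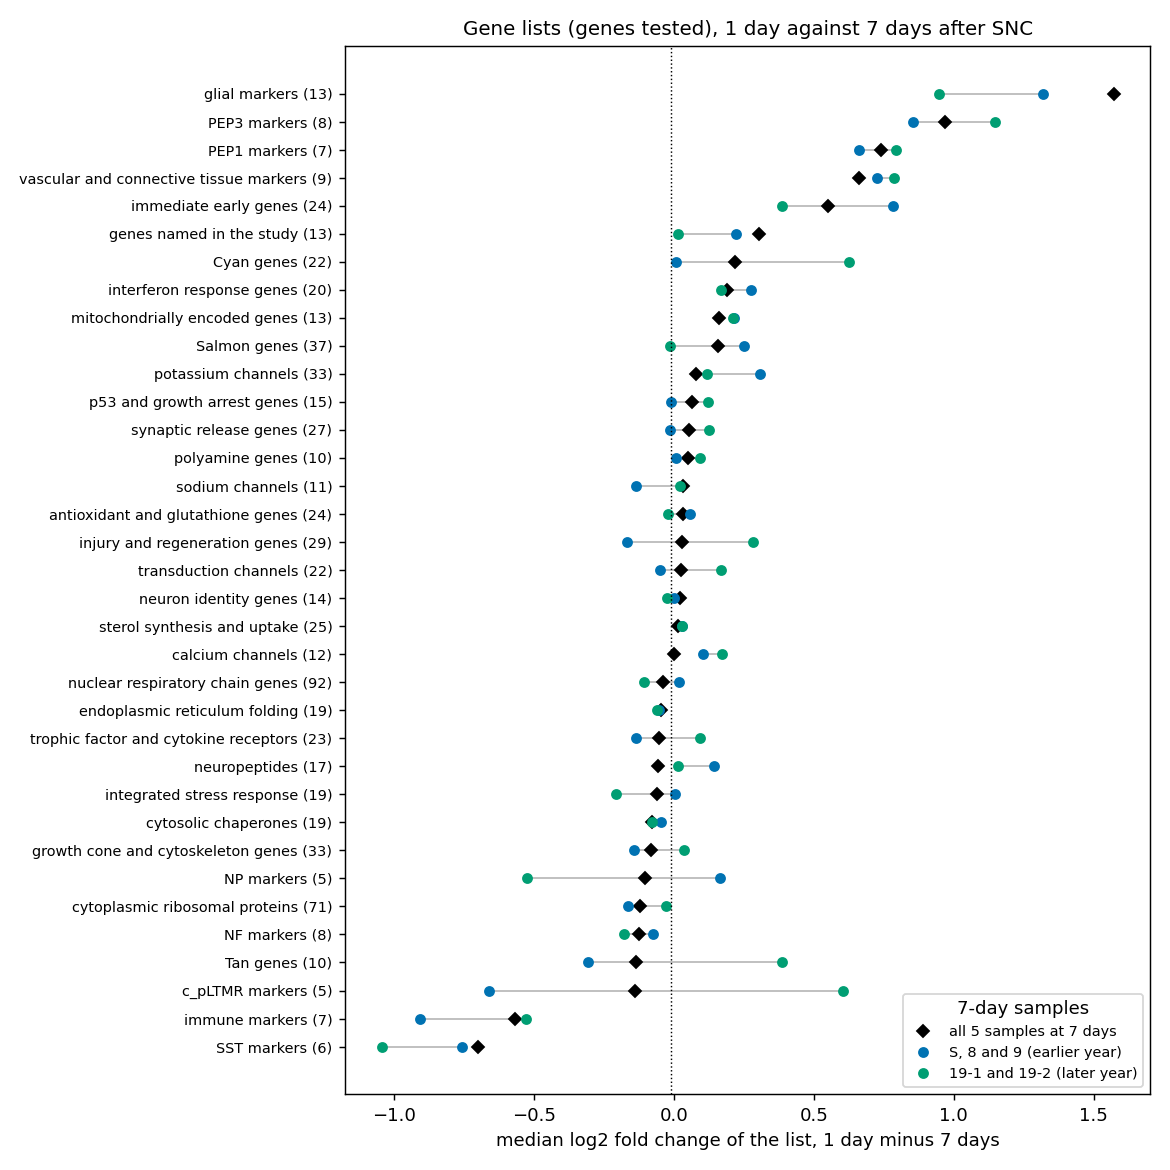
Median log2 difference (1 day minus 7 days, x axis) of each gene list with at least 5 genes tested, with the number tested in parentheses, against all 5 samples at 7 days (diamonds), S, 8 and 9 (blue) and 19-1 and 19-2 (green). The dotted line is the median of all genes tested, -0.01. Immediate early, glial and PEP3 lists lie to the right and SST and immune lists to the left under all 3 choices, while the injury, Tan and c_pLTMR lists, among others, lie on different sides of the line for the samples of the earlier and the later year.

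The 930 labelled neurons of the series that passed the limits were clustered, without the added sham libraries. With the markers of the neuron classes this gave PEP1-like neurons (54 at 1 day and 56 at 7 days), PEP3-like (34 and 18), NF-like (32 and 18), SST-like (26 and 35) and NP-like neurons (20 and 6). Clusters 1, 3, 8 and 9 were left without a name. Cluster 1 rested on too few markers, cluster 3 was led by Shox2 and Ntng1 with markers of several classes, cluster 8 had glial genes high, and cluster 9 was led by Foxp2 and Penk. NF-like neurons made up 16.2% ± 6.82 of the cells of a sample at 1 day (SD, n = 4) and 9.79% ± 5.29 at 7 days (SD, n = 5), a difference within the spread between samples (exact two-sided permutation p = 0.159, adjusted over the 9 classes 0.5). NP-like neurons made up 8.38% ± 3.53 and 3.54% ± 3.26 (exact permutation p = 0.111, adjusted 0.5). Their share was lowest in S and 8, at 1.04% and 0% (0 of 48 cells, which allows a share of up to 6.25%), and the 19-1 and 19-2 shares of 4.17% and 8.33% lay within the 1-day range. SST-like neurons lay the other way, at 9.97% ± 4.73 and 16.9% ± 9.27 (exact permutation p = 0.222, adjusted 0.5), with 33.3% in 19-2 and between 11.5% and 14.6% in the other 7-day samples. Cluster 3 held 4.45% ± 3.84 and 13.8% ± 11.8 (exact permutation p = 0.206, adjusted 0.5).

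PEP1-like neurons made up 23.6% ± 3.93 at 1 day (SD, n = 4) and 22.7% ± 2.80 at 7 days (SD, n = 5), with an exact permutation p of 0.810 (adjusted 0.810). PEP3-like neurons made up 11.3% ± 7.76 and 7.08% ± 4.32 (exact permutation p = 0.317, adjusted 0.571). Sample 17-1 held no PEP3-like neuron, and 0 of 24 cells allows a share of up to 12.5% by counting error alone. Clusters 1, 8 and 9 had exact permutation p from 0.397 to 0.778. The groups overlapped in all 9 classes, against all 7-day samples and against 19-1 and 19-2. As NF-like neurons and cluster 3 share marker genes, their split matters: at a coarser clustering (resolution 0.3), where they were joined, the difference in the NF-like share was -2.90 percentage points, as against 6.40. The classes were rebuilt from markers and may differ from those of the study.

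**Figure D5:**
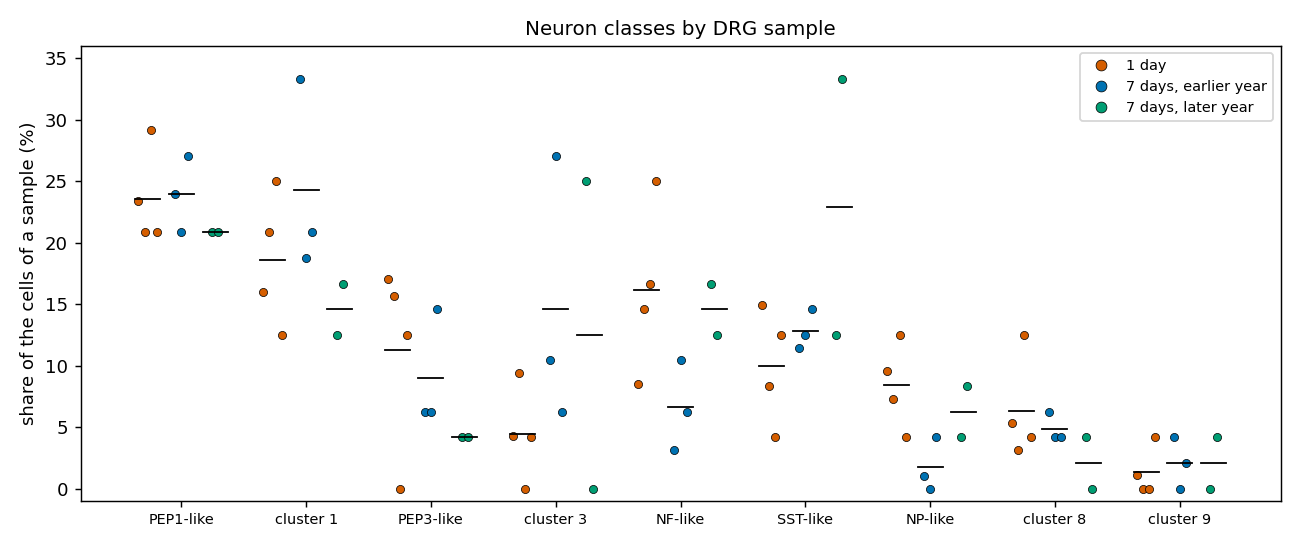
Share of the cells of a DRG sample (percent, y axis) in each neuron class or cluster (x axis), at 1 day, at 7 days in the earlier year (S, 8, 9) and at 7 days in the later year (19-1, 19-2). Points are samples and bars are means, and in every class the 1-day and 7-day samples overlap, with the lowest NF-like and NP-like shares among the 7-day samples of the earlier year and the highest SST-like share, 33.3%, in 19-2.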

How the data were processed

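Single DRG neurons were sequenced by a modified Smart-seq2 protocol in which each cell carries a barcode and each molecule a UMI at its 3′ end. The deposited UMI counts per gene and cell were made by the authors with UMI-tools, STAR, featureCounts and SAMtools on Rnor_6.0, without normalization. Cells with at least 500 genes, 1000 UMIs and a mitochondrial share under 5% were summed per DRG sample (32881 genes). No doublet caller was run, as cells were picked by hand, and no 2 cells had identical counts. All 16 labelled samples in 4 groups were fitted with edgeR 4.0.16 (TMM, filterByExpr, quasi-likelihood F test, Benjamini-Hochberg adjustment over 14239 genes, called at 0.05). Shares and depths were compared by exact two-sided permutation tests (SciPy 1.17.1). Neuron classes came from Seurat 5.3.0 clusters and fixed markers. DESeq2 1.42.0, filters, scalings, subsets of samples and left-out clusters were alternatives, some added after seeing the data. The procedure was tested on simulated data. Members and gene lists were chosen with earlier results of these data known. Named were up to 10 genes at either end with the lowest p among those of at least 10 CPM without overlap, genes called against 19-1 and 19-2, 2 to 4 members of each list with the lowest p, and genes named in the study. Other genes named, such as Csf1, Sox11 and Fosl1, are list members chosen after their values were seen. The 7 added sham libraries of the series were not used in tests, and counting error alone is small beside the spread between samples at these depths. Of the genes this rule names, 1 is not reported here.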

Additional observations from a re-analysis of the deposited data

Results flagged for a closer look

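Over 98 sets of 4 or 5 samples, 9 held a sample farther from the others than Dixon's 95% limit allows, and chance gives about 1 in 20. At 7 days, sample 19-2 was far above the other 4 for Serinc5 (10.9 CPM), Scn10a (201 CPM), Sst (286 CPM) and the share of SST-like neurons (33.3%), sample S for RGD1359290 (84.3 CPM) and Rps9 (30.0 CPM), sample 8 for Ggct (74.5 CPM) and sample 9 for the share of PEP3-like neurons (14.6%). At 1 day, sample 17-2 was far above the other 3 for Nefh, the heavy neurofilament of large neurons (861 CPM), and it also held the highest share of NF-like neurons (25.0%). What lies behind these values was not tested.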

How the results depend on the processing

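Between 1 day and all 7-day samples, edgeR called no gene with other size factors, without a filter, with cells thinned, with any library left out (0 to 0) or against S, 8 and 9, and leaving out clusters 2, 4, 5 and 7, 6 or 8 also gave 0, as did limma with each cell weighing the same. The count was 22 with DESeq2, 1 with only the 9 samples (Ajap1), 1 with the year as a term (Mrpl43), 4 with the date as a block, 2 in PEP1-like neurons, 5 against 19-1 and 19-2 and 7 between the libraries of the same date, and the cause was not tested. Against 19-1 and 19-2 the 5 calls became 380 with DESeq2, 13 without a filter and 1 with cells thinned to 20000 UMIs, and between S, 8 and 9 and 19-1 and 19-2 there were 420. With a library left out they ran from 3 (without 16 or 17-1) to 10 (without 19-2). Between the libraries of the same date the 7 calls became 652 with DESeq2, 91 without a filter and 1 when thinned. At resolution 0.3 the difference in share was -2.90 percentage points for NF-like neurons and 2.58 for cluster 1. With a sample left out in turn it ran from -1.02 to 1.94 for PEP1-like neurons and from -3.99 to 1.39 for cluster 1, and that in median genes per cell from -277.6 to 132. Of 2962 values of the 111 named genes under alternatives, 2876 kept their side, 21 came past the threshold and 65 changed sign, over 20 genes. The other 91 genes kept their sign.

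Between 17-1 and 17-2 and 19-1 and 19-2, the sign turned for Nefh (0.10), Rbms3 (-0.072), Scn10a (-0.031) and Trpv1 (-0.21). With 17-1 and 17-2 merged and 19-1 and 19-2 merged, the sign turned for Hid1 (-0.024), Mrgprb4 (0.24) and Scg3 (0.038). Against 19-1 and 19-2, the sign turned for H1f4 (0.52), Nefh (0.013), Scn10a (-0.033), Tpm4 (0.40) and Trpv1 (-0.19). In PEP1-like neurons alone, the sign turned for Hid1 (-0.076), Kcnt2 (-0.97), Scn3b (0.060), Sst (0.017), Trpv1 (-0.19), Zeb2 (-0.27) and Zfp521 (0.11). Against S, 8 and 9, the sign turned for Hid1 (-0.38), Map4k4 (-0.072), Mrgprb4 (1.00), Sst (0.22) and Trpa1 (-0.34). With each cell thinned to 20000 UMIs, the sign turned for Il31ra (0.26), Nefh (0.037), Scg3 (0.21), Sst (0.43) and Trpm8 (0.26). Without cluster 2, the sign turned for Scg3 (0.028) and Trpa1 (-0.14). Without cluster 4, the sign turned for Scg3 (0.11). Without clusters 5 and 7, the sign turned for Lpar3 (0.076) and Sst (0.15). With its date as a block, the sign turned for Nefh (0.10), Rbms3 (-0.072), Scn10a (-0.031) and Trpv1 (-0.21). With each cell weighing the same, the sign turned for Mrgprb4 (0.50), Nefh (0.076) and Scg3 (0.13). With the year in the fit, the sign turned for Gal (0.048), H1f4 (0.44), Rbms3 (-0.026), Scg3 (0.040), Scn10a (-0.042), Tpm4 (0.33), Trpm8 (0.098) and Trpv1 (-0.20). With a library left out in turn, the value crossed 0 for Hid1 (-0.062 to 0.49), Mrgprb4 (-1.35 to 1.34), Nefh (-0.23 to 0.062), Scg3 (-0.084 to 0.059), Sst (-1.18 to 0.44), Trpa1 (-0.56 to 0.21) and Trpm8 (-0.71 to 0.14).

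No paired analysis was possible because the labels give the days no shared replicate number, and the fit with the date as a block, which joins 17-1, 17-2, 19-1 and 19-2, is given above. The alternatives with clusters left out, against S, 8 and 9 alone and between the 7-day samples were added after seeing the data. Of the 9 samples, 17-1 had the lowest total (8703690 UMIs from 24 cells) and sample 8 the lowest median per cell (173220 UMIs). The limits are the 4 and 5 samples, the year, the sequencing date of S and the distance of 19-1 and 19-2 from all other samples.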

Other observations

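Genes that passed only under another tool or in a subset of cells were looked at after their values were seen. DESeq2 called Tnnt2, cardiac troponin T, with the lowest adjusted p (3.06, adjusted p = 0.002), at 5.14, 9.22, 3.95 and 5.20 CPM at 1 day and 0.665, 0.398, 1.29, 0.832 and 0.313 CPM at 7 days. It also called Sod3, an extracellular superoxide dismutase (3.08, adjusted p = 0.014), at 3.01, 2.85, 27.0 and 9.98 CPM at 1 day and 2.76, 0.955, 0.890, 0.936 and 0.626 CPM at 7 days, Epas1, a hypoxia-inducible factor (2.67, adjusted p = 0.033), at 2.82, 2.49, 22.5 and 12.7 CPM at 1 day and 2.26, 0.637, 2.10, 1.04 and 1.77 CPM at 7 days, and Myl9, a smooth muscle myosin light chain (1.89, adjusted p = 0.014). Sod3 and Epas1 were highest in 17-1, as Apoe and Fbln2 were in 17-1 or 17-2. In the other direction DESeq2 called RT1-Da, an MHC class II chain (-4.21, adjusted p = 0.021), at 0.419, 0.198, 0.220 and 0.208 CPM at 1 day and 10.8, 8.44, 1.62, 2.60 and 1.04 CPM at 7 days, and the gene listed as LOC306079, at 2.21, 2.73, 2.31 and 1.56 CPM at 1 day and 31.6, 47.9, 64.6, 1.98 and 2.71 CPM at 7 days. The level of LOC306079 in 19-1 and 19-2 lay within the range of the 1-day samples or next to it.

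Within PEP1-like neurons edgeR called 2 genes, both higher at 1 day. Ankrd1, an ankyrin-repeat protein induced by injury, had a log2 difference of 1.63, adjusted p = 0.033 there, with 128, 143, 167 and 96.5 CPM at 1 day and 94.0, 129, 94.0, 33.4 and 61.7 CPM at 7 days over all neurons, where 19-1 and 19-2 were the lowest and sample 8 overlapped the 1-day samples. Lce1f, a late cornified envelope protein, had 3.27, adjusted p = 0.017, with 28.2, 33.0, 27.9 and 22.4 CPM at 1 day and 13.0, 30.0, 8.01, 7.70 and 5.63 CPM at 7 days over all neurons. Mrpl43, a mitochondrial ribosomal protein called with the year or date in the fit, was at 99.8, 36.8, 148 and 149 CPM at 1 day and 128, 99.1, 52.2, 3.43 and 2.92 CPM at 7 days, and again 19-1 and 19-2 stood apart from the rest.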
